A study of Mus musculus with 4 samples.

Results

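The genes described here are 35 glycolysis and hypoxia response genes, a set fixed by name and found as rows of the gene table in all 4 libraries, among 32285 genes in all. They comprise 20 glycolytic enzymes and transporters, 10 genes known to be induced by low oxygen and 5 regulators of the hypoxia response. The libraries hold 3-prime single-cell RNA counts of stromal and endothelial cells sorted from mouse femurs, to see how these cells differ when lymphoma cells grow beside them. All groups share the C57BL/6 strain and the Rag2-/-gammac-/- genotype, so the hosts lack T, B and natural killer cells. Ctrl mice were at steady state, and Sham_D40 mice had received PBS and were taken at day 40. Graft_D19 and Graft_D40 mice carried DOHH2 cells, 1 established human follicular lymphoma line, in the femur for 19 days (tumour stage Early) and 40 days (Late). Each group has 1 library, and the sources used here do not say how many animals it holds. No difference was therefore tested, group cannot be told apart from animal or library, and every interval below is at 95% and covers counting error only.

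Glycolysis turns glucose into pyruvate. Slc2a1 carries glucose into the cell, Hk1 and Hk2 phosphorylate it, the phosphofructokinases Pfkl, Pfkm and Pfkp commit it to the pathway, and Aldoa through Pkm complete it. Ldha turns pyruvate into lactate, which Slc16a3 mainly exports and Slc16a1 carries in either direction. When oxygen is low, the prolyl hydroxylases Egln1 and Egln3 and the ubiquitin ligase subunit Vhl no longer remove the factors Hif1a and Epas1. These then bind short elements, often with the core ACGTG, near their target genes. Cartilage has no blood vessels and is known to rely on glycolysis and Hif1a, and marrow is itself poor in oxygen.

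The sequences just upstream of the transcription starts of 6 members are shown because these are textbook hypoxia targets and because the results below separate them: Pgk1, Ldha, Slc16a3 and Hk2 were called higher in LepR-like stroma at day 40, whereas Bnip3 was not and Ankrd37 was too low there to be measured. Each is the 250 bases before a RefSeq start on GRCm38.p6, read along the gene, with capitals on every ACGTG of either strand (CACGT on the printed strand).
Pgk1 (chrX:106186850-106187099, plus strand): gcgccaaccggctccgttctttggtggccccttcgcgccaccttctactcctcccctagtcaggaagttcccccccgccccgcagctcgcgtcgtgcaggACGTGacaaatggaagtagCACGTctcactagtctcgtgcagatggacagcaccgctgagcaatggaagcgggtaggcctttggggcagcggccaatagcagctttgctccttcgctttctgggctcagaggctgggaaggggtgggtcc
Ldha (chr7:46845554-46845803, plus strand): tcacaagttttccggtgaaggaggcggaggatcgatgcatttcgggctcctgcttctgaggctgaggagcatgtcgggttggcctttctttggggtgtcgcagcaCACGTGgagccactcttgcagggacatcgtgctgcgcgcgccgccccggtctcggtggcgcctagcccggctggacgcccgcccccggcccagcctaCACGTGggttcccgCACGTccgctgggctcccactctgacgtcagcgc
Slc16a3 (chr11:120948817-120949066, plus strand): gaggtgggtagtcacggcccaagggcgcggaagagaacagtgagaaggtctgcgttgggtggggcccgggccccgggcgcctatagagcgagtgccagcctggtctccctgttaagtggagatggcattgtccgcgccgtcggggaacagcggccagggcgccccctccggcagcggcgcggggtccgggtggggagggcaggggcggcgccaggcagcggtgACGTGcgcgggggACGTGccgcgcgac
Hk2 (chr6:82774455-82774704, minus strand): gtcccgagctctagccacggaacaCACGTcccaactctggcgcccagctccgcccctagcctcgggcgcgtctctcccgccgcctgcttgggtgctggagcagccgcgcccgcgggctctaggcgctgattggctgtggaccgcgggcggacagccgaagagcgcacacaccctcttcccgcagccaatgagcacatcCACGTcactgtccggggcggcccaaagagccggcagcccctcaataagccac
Bnip3 (chr7:138909507-138909756, minus strand): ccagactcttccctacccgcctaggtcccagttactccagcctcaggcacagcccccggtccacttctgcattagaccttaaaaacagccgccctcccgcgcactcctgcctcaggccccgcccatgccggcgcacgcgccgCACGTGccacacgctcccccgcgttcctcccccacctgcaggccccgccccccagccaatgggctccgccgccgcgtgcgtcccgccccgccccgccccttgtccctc
Ankrd37 (chr8:45999851-46000100, minus strand): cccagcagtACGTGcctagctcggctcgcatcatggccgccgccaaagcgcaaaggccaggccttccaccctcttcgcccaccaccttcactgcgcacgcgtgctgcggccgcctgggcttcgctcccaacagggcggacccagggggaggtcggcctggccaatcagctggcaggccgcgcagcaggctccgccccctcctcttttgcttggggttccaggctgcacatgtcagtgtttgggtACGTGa
All 6 windows hold the core. Ldha has a second RefSeq start, whose window (chr7:46846832-46847081) holds 0 matches, and the other 5 genes have 1 window each. Counted on both strands, so that a palindromic CACGTG counts on each, Ldha has 5 matches and the other 5 genes have 2 each. Windows were found for 33 of the 35 members, Epas1 and Ndrg1 being those without. ACGTG was in 22 of their 50 windows (44.0%), against 16.6% of all 32851 windows, and in at least 1 window of 18 of the 33 genes (54.5%), against 18.5% of all 27025 genes. It was in 8 of the 13 members called higher in LepR-like cells at day 40 and in 10 of the 20 others, and is a match of letters, not a measured binding site. The related GCGTG is not part of these counts, so a member without ACGTG may still hold that form.

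Cells were assigned to classes one by one from the share of fixed marker lists they expressed, so a class is a range on a score and not a proven type. LepR-like cells, the Cxcl12-rich reticular stroma of marrow, numbered 1965, 2304, 2089 and 1703 in Ctrl, Sham_D40, Graft_D19 and Graft_D40, the order kept below, of which 14 to 51 lay near a cut. They had a median of 12 to 14 of 14 LepR stroma markers, 3 to 4 of 13 osteolineage markers and 0 to 3 of 15 chondrocyte markers. Chondrocyte-like cells numbered 247, 379, 717 and 952 in the same order, with 7 to 29 near a cut, 11 to 12 chondrocyte markers and 2 to 4 LepR stroma markers. Only Sham_D40 and Graft_D40 carry antibody tag counts, 2 features in each. The gene totals of the libraries ran from 18533482 UMIs in Ctrl to 72204599 in Graft_D40, and 11 to 15 barcodes were shared between any 2 libraries. Left out of every class were cells with a ribosomal pseudogene signature, 50 or more such counts per 10000, 15, 0, 67 and 231 in that order. Levels are in CPM, the UMIs of a gene scaled to the total UMIs of its class in a library.

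Chondrocyte-like cells had the most glycolysis RNA in each of the 4 libraries. The summed level of the 20 enzymes and transporters in them was 5388 CPM in Ctrl (interval 5257 to 5521), 5489 in Sham_D40 (5440 to 5539), 5190 in Graft_D19 (5157 to 5224) and 5184 in Graft_D40 (5155 to 5213). These levels lay close together across the libraries. In LepR-like cells the sum was 1535, 1219, 1257 and 2558 CPM in that order, in osteolineage-like cells 1000 to 1298, and in sinusoidal-like endothelium 1734 to 2316. The nearest value was that of the 55 pericyte-like cells of Ctrl, 4446 CPM. Of the 35 members, 17 were highest in chondrocyte-like cells in all 4 libraries among the 5 classes with a value in each. Ldha, at 913 to 1024 CPM there, and Higd1a, a hypoxia-induced mitochondrial protein, at 455 to 631 CPM, were among them. LepR-like cells held the highest level of Ldhb, Pfkfb4, Mxi1 and Eno2 in all 4, Eno2 at only 2.88 to 4.22 CPM there, and sinusoidal-like cells that of Slc16a1. Epas1 and Kdm3a were highest in arterial-like cells in all 4, with Epas1 at 1102, 1059, 870.2 and 834 CPM. The class with the highest level was thus the same in all 4 libraries for 24 members, and the plot of summed levels by class shows both gene groups.

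**Figure D1:**
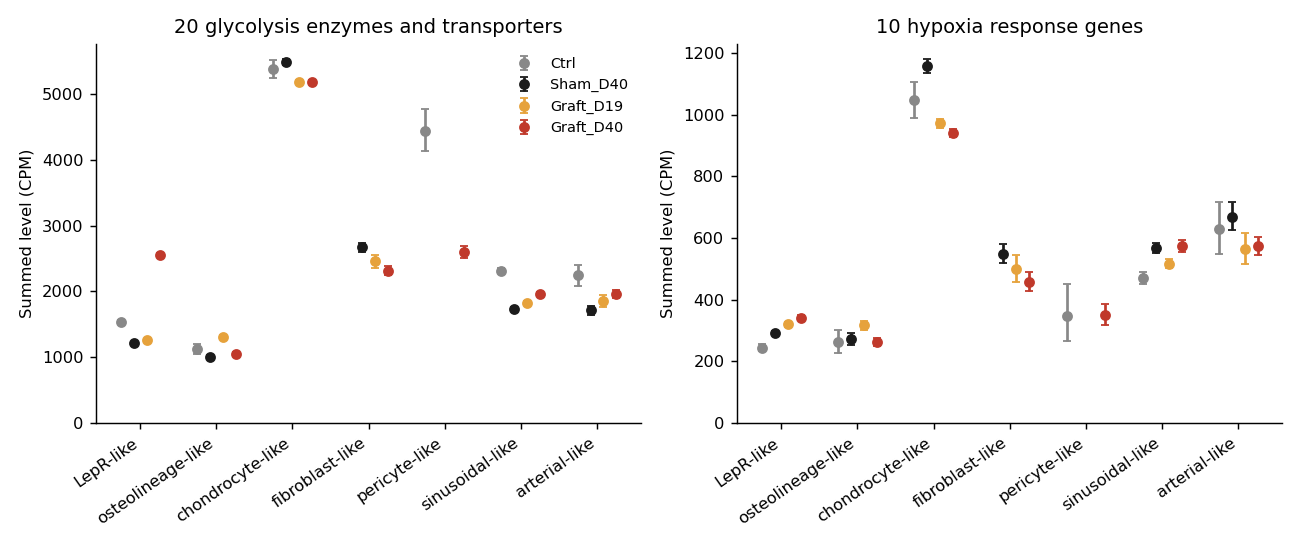
Summed level in CPM (vertical axes, from 0) of the 20 glycolysis enzymes and transporters (left) and the 10 hypoxia response genes (right) in 7 cell classes (horizontal axes); points are the libraries and bars exact Poisson intervals, with no point where a class had under 50 cells. Chondrocyte-like cells stand highest for both groups, and LepR-like cells of Graft_D40 stand above the other LepR-like points on the left.

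Over the whole mesenchymal stroma, glycolysis RNA was higher at day 40 than after sham injection. A member counts as measured if it averages at least 5 CPM over the libraries compared. It counts as called if the ratio is at least 1.5-fold and its interval leaves out 1. Of 33 measured members 7 were called higher, where 6.01% of all 10891 measured genes were, and 2 were called lower, against 10.5% of all. Scaled by median-of-ratios size factors, 13 were higher and 0 lower, against 8.9% and 7.35% of all genes scaled in the same way. The 7 were Aldoc, Gapdh, Pgk1, Pgam1, Eno1, Pkm and Ldha, all glycolytic enzymes. Pkm, pyruvate kinase, was at 116, 244, 338 and 409 CPM, which is 1.68-fold (1.64 to 1.72) above Sham_D40. Ldha was at 301, 385, 514 and 606 CPM, 1.57-fold (1.54 to 1.60) above Sham_D40. For both genes the grafted libraries lay above the ungrafted ones. None of the 10 hypoxia response genes was called higher, and Mxi1, a repressor of Myc activity, was called lower, from 63.3 to 41.3 CPM.

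The make-up of the stroma differed between the same libraries. Chondrocyte-like cells gave 11.7%, 22.8%, 41.5% and 44.1% of stromal UMIs. When LepR-like, osteolineage-like and chondrocyte-like cells were instead weighted alike in every library, 0 of 33 members were called higher and 1 lower at day 40, against 1.89% and 5.33% of all genes. The median log2 ratio of the members was then -0.05 in place of 0.29. That of all genes was -0.08 with that weighting and -0.11 without it. With those weights Ldha had a log2 ratio of 0.15 and Eno1, enolase, one of 0.52, against 0.65 and 1.03 over all stromal cells. With chondrocyte-like cells left out, 11 of 31 members were called higher and 0 lower, against 7.1% and 7.8% of all genes. Epas1 was called lower over all stroma, at 279, 281, 215 and 172 CPM, whereas within LepR-like cells it was at 353, 456, 491 and 399 CPM and within chondrocyte-like cells at 21.7 to 37.4 CPM.

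Day 19 against Ctrl gave a larger count, 23 higher and 1 lower of 33, against 18.3% and 14.1% of all genes. With the 3 classes weighted alike it was 8 higher and 0 lower of 33 (19.6% and 7.61% of all genes), and without chondrocyte-like cells 10 higher and 3 lower of 30 (22.6% and 10.3%). With each cell counted alike, where a call needed the ratio alone and no interval, it was 12 higher and 1 lower of 32 (19.8% and 9.1%). With a minimum of 50 CPM it was 9 higher and 0 lower of only 14 measured (14.6% and 17.7%). The sham library set against the same Ctrl gave 14 higher and 1 lower of 32, against 23.3% and 10.5% of all genes. These comparisons share Ctrl, the shallowest library. Hk2, the inducible hexokinase, was at 17.3, 25.5, 46.6 and 30.0 CPM. Slc16a1 was at 4.90, 6.77, 11.5 and 10.1 CPM. Hk2, Eno1 and Slc16a1 were the 3 members called higher at day 19 against both ungrafted libraries, against 3.15% of genes called so. For Eno1 the log2 ratio to Ctrl was 0.75, but -0.11 with the classes weighted alike and -0.20 without chondrocyte-like cells. Against Sham_D40 alone Slc2a1, the glucose transporter, was not called at day 19, at 22.4 against 23.6 CPM.

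**Figure D2:**
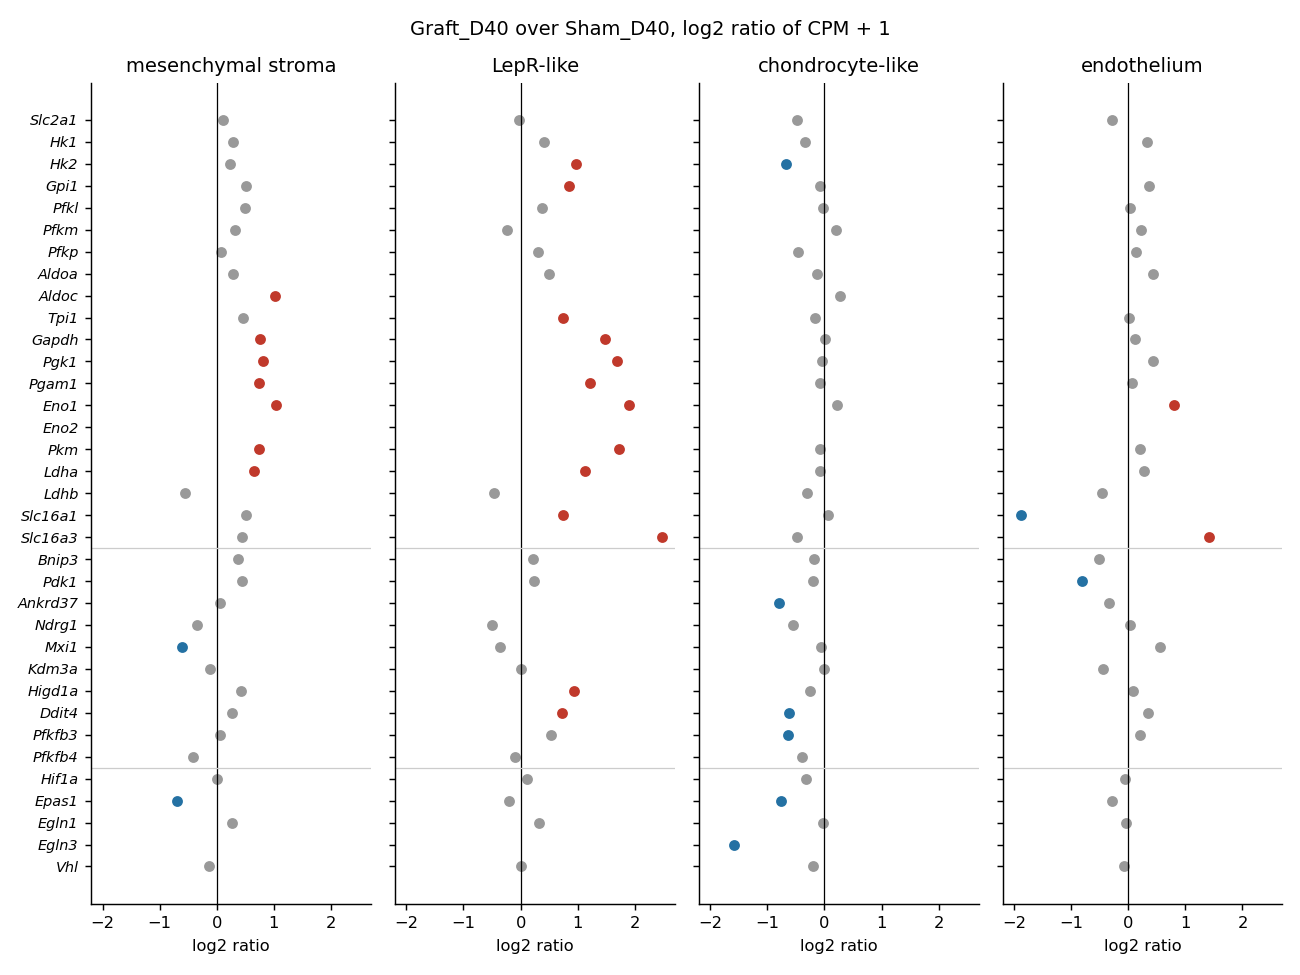
Log2 ratio of Graft_D40 over Sham_D40, with 1 CPM added (horizontal axes), for each measured member (rows: 20 enzymes and transporters, 10 hypoxia response genes, 5 regulators) in 4 populations; red marks members called higher, blue called lower, grey neither. In LepR-like cells the 13 red points lie mostly among the enzymes, and in chondrocyte-like cells there is none.

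Within LepR-like cells a block of glycolytic genes was higher at day 40. Of 31 measured members 13 were called higher than in Sham_D40 and 0 lower, where 10.9% and 7.6% of all genes were. The median log2 ratio of the members was 0.41, and that of all genes -0.01. Of the enzymes and transporters 11 of 18 measured were called higher: Hk2, Gpi1, Tpi1, Gapdh, Pgk1, Pgam1, Eno1, Pkm, Ldha, Slc16a1 and Slc16a3. Of the hypoxia response genes 2 of 9 were, Higd1a and Ddit4. Both ungrafted libraries lay below Graft_D40 by the same rule for 11 of 30 members, against 8.06% of genes.

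At the later steps of the pathway Graft_D40 stood above the 3 other libraries. Pgk1, phosphoglycerate kinase, which makes ATP, was at 43.9, 41.9, 45.9 and 137 CPM, 3.26-fold (3.02 to 3.52) above Sham_D40. Pkm was at 53.2, 75.9, 83.1 and 253 CPM, 3.33-fold (3.15 to 3.53) above Sham_D40. Graft_D40 was the highest library for each. Ldha was at 192, 166, 189 and 366 CPM, 2.20-fold (2.11 to 2.29) above Sham_D40, and here too the other 3 lay together. Eno1 was at 94.7, 41.4, 67.6 and 158 CPM and Gapdh at 389, 204, 198 and 569.9 CPM, so that for these 2 genes Ctrl lay between. Gapdh was 2.79-fold (2.69 to 2.89) above Sham_D40 but 1.47-fold (1.41 to 1.53) above Ctrl, under the threshold. Gapdh, Eno1, Pgam1, Aldoa and Ldha have closely similar copies or pseudogenes, so their counts depend on how reads were shared among copies.

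The steps before and after differed from one another. Hk2 was at 6.93, 6.02, 14.6 and 12.7 CPM, high in both grafted libraries, and was the only member called higher at day 19 against both ungrafted libraries (1.57% of genes). Slc2a1, at 8.62, 11.0, 8.46 and 10.8 CPM, and the phosphofructokinase Pfkl, at 23.9, 34.6, 31.8 and 45.3 CPM, were not called against Sham_D40. Slc16a3, the lactate exporter, had 1, 54, 35 and 338 UMIs, or 0.131, 2.52, 2.06 and 18.5 CPM. That is 7.36-fold (5.51 to 10.0) above Sham_D40 and, against the single UMI of Ctrl, a ratio of 142 (25.3 to 5616). Slc16a3 was under 5 CPM in every other library, so it met the minimum, and entered the counts called higher, only through Graft_D40. In Graft_D40, 10 cells held 54.1% of the Slc16a3 UMIs. Ldhb, the lactate dehydrogenase subunit typical of oxidative tissue, ran the other way at 71.1, 48.9, 42.5 and 35.2 CPM, and was called lower at day 40 only against Ctrl.

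A few cells with cell cycle markers, which were also deep, carried much of this difference. In Graft_D40, 58 of the LepR-like cells (3.41%) had 2 or more of 7 cell cycle markers and gave 17.4% of the class's UMIs. They had a median of 50374.5 UMIs, against 8144 in the 1645 other cells. Their summed glycolysis level was 6748 CPM (6658 to 6839), above that of chondrocyte-like cells, against 1678 CPM (1658 to 1699) in the others. In the cycling cells Gapdh was at 1785 CPM against 315 in the others, Ldha at 915 against 251, Pkm at 789.7 against 140 and Slc16a3 at 67.6 against 8.22. Epas1 was instead at 39.2 CPM against 474. Their median was 10.5 of 14 LepR stroma markers detected. Their LepR stroma markers summed to 2595 CPM against 33276 in the other Graft_D40 cells, their pericyte and smooth muscle markers to 2162 against 734, and their chondrocyte markers to 317 against 1040. Their osteolineage markers summed to 5774 CPM against 11724, their mesenchymal markers to 14104 against 11936 and their fibroblast markers to 2066 against 2175, so that among these cells the LepR stroma sum was below the osteolineage and mesenchymal ones. The name LepR-like rests on how many markers a cell showed, not on their summed level. The part of these other markers in the glycolysis values was not tested.

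Without the cycling cells the summed level was 1.39-fold (1.37 to 1.42) that of Sham_D40, against 2.10-fold (2.07 to 2.13) with them. It was 1.10-fold (1.07 to 1.12) that of Ctrl, against 1.67-fold with them. The members called higher than in Sham_D40 were then 9 of 31: Hk2, Gapdh, Pgk1, Eno1, Pkm, Ldha, Slc16a1, Slc16a3 and Pfkfb3, against 7.69% of all genes, and 0 were lower (5.14%). Without them Pkm was 1.83-fold (1.72 to 1.957) above Sham_D40, Pgk1 1.79-fold (1.63 to 1.957) and Eno1 2.06-fold (1.88 to 2.24). Gapdh was then 1.60-fold (1.53 to 1.66) above Sham_D40, Ldha 1.55-fold (1.48 to 1.62) and Slc16a3 3.23-fold (2.33 to 4.53). Against Ctrl 12 of 28 members were then called higher and 1 lower, Ldhb, where 30.0% and 10.7% of all genes were. Hk2, Pgk1, Pkm and Pfkfb3 were among those 12, but Gapdh, Eno1, Ldha, Slc16a1 and Slc16a3 were not. Among cells of 5000 to 15000 UMIs, a depth found in every library, the summed level was 1347 CPM in Graft_D40, 1136 in Sham_D40, 1187 in Graft_D19 and 1663 in Ctrl. At that depth Graft_D40 lay 1.19-fold (1.16 to 1.21) above Sham_D40 and below Ctrl. Of 30 measured members 4 were called higher than in Sham_D40, Hk2, Eno1, Slc16a1 and Pfkfb3, and 1 lower, Slc2a1, against 7.32% and 4.41% of all genes. Against Ctrl at that depth 8 of 28 were called higher, where 35.2% of all genes were. Gapdh, Eno1, Ldhb and Bnip3 were called lower than in Ctrl (11.4% of all genes). Pfkfb3 alone was then called higher against both ungrafted libraries. Over 15000 UMIs the summed level was 4670 CPM in 222 Graft_D40 cells, 1677 in 207 Sham_D40 cells and 1891 in 115 Graft_D19 cells. Those 222 cells gave 36.9% of the class's UMIs in Graft_D40. The parts of depth and of the cell cycle were not told apart. Over the whole class the median cell had 1280 CPM of glycolysis RNA in Graft_D40 (quartiles 897 and 1711), 1040 in Sham_D40 (714 and 1390), 1071 in Graft_D19 and 1359 in Ctrl, so that the cells of the 4 libraries overlapped widely.

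Other RNA moved with the same libraries. The 14 LepR stroma markers summed to 59490, 62005, 49136 and 27951 CPM and the 11 pericyte and smooth muscle markers to 266, 292, 391 and 982 CPM, with none of either list at 0. Without the cycling cells these sums were 62553 and 294 CPM in Sham_D40 and 33276 and 734 in Graft_D40. The 12 mesenchymal markers summed to 4953, 7587, 8958 and 12312 CPM. The part of these markers in the members' values was not tested. Over all LepR-like cells the 7 cell cycle markers summed to 21.3, 17.6, 19.03 and 266 CPM in the usual order of libraries. The 10 erythroid markers summed to 861, 296, 116 and 17.8 CPM, with 2 of the 10 at 0 in Graft_D40, in the same order of libraries as Ldhb. The part of erythroid RNA in the Ldhb values was not tested. The 15 chondrocyte markers summed to 237, 855, 1970 and 914 CPM, so they were near each other in Sham_D40 and Graft_D40.

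**Figure D3:**
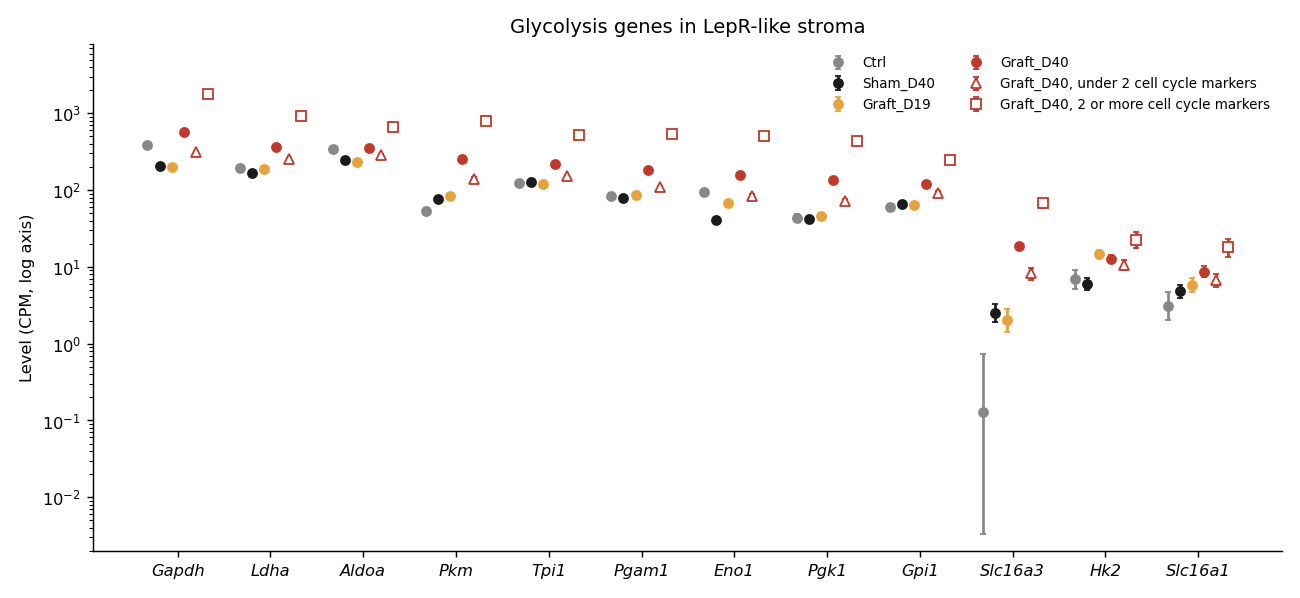
Level in CPM (log axis) of 12 glycolysis genes in LepR-like cells; filled points are the 4 libraries, open triangles the Graft_D40 cells with under 2 cell cycle markers and open squares those with 2 or more, with exact Poisson intervals. The squares lie highest for each gene, and for Pgk1, Pkm and Slc16a3 the triangles still lie above Sham_D40.

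Chondrocyte-like cells had near-equal enzyme levels at day 40 and after sham injection, but less of several hypoxia genes. Of 34 measured members 0 were called higher than in Sham_D40 and 6 lower, against 1.42% and 5.9% of all genes. With the cells of the ribosomal pseudogene signature kept, 0 were higher and 8 lower (2.71% and 6.55%). The 14 fibroblast markers summed in these cells to 4771, 10963, 8399 and 2923 CPM, with 5, 1, 0 and 0 of them at 0, and the 10 erythroid markers to 23.5, 392.5, 3.01 and 4.46 CPM, with 5, 0, 2 and 2 at 0. The part of these markers in the calls was not tested. The 6 were Hk2, Epas1, Egln3, Ankrd37, Pfkfb3 and Ddit4. Egln3 (chr12:54178981-54203860 on mm10), which is itself a hypoxia target, was at 7.55, 11.2, 5.19 and 3.07 CPM, 3.66-fold lower than in Sham_D40 (2.66 to 5.04). Hk2 was at 79.7, 82.5, 82.9 and 51.2 CPM, 1.61-fold lower than in Sham_D40 (1.47 to 1.77), and Graft_D40 alone was low. These 2 were also called lower against Ctrl, where 1.21% of genes were called lower against both. For Egln3 the Ctrl level of 7.55 CPM rests on few UMIs, as 3 UMIs there make 2.52 CPM. Ankrd37, a strongly induced hypoxia gene, was at 24.3, 35.5, 14.7 and 20.2 CPM and was lowest in the 2 grafted libraries. Ddit4, an inhibitor of mTORC1, was at 84.0, 143, 92.7 and 92.5 CPM and Pfkfb3, which drives phosphofructokinase, at 13.4, 39.1, 28.1 and 24.7 CPM. For both of these Sham_D40 stood above the 3 others, so the call rests on that library. Bnip3, a mitophagy receptor, was at 216, 252, 197 and 222 CPM and Pdk1, which keeps pyruvate out of mitochondria, at 26.9, 65.7, 48.0 and 57.5 CPM.

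Immediate early genes, known to be induced by tissue digestion, moved with these. In chondrocyte-like cells 15 of 20 were called lower in Graft_D40 than in Sham_D40 and 0 higher, against 5.9% and 1.42% of all genes. Among them Atf3 was at 32.4 against 142 CPM and Hspa1b at 17.0 against 66.4 CPM. Their part in the lower Ddit4 and Pfkfb3 was not tested. The fixed list of other hypoxia-inducible genes had 7 of 35 measured lower and 0 higher in these cells, against the same shares of all genes. Among the 7 was Lox, a collagen cross-linking enzyme, at 22.0 against 52.4 CPM. The median log2 ratio of that list was -0.20, and that of all genes -0.04.

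**Figure D4:**
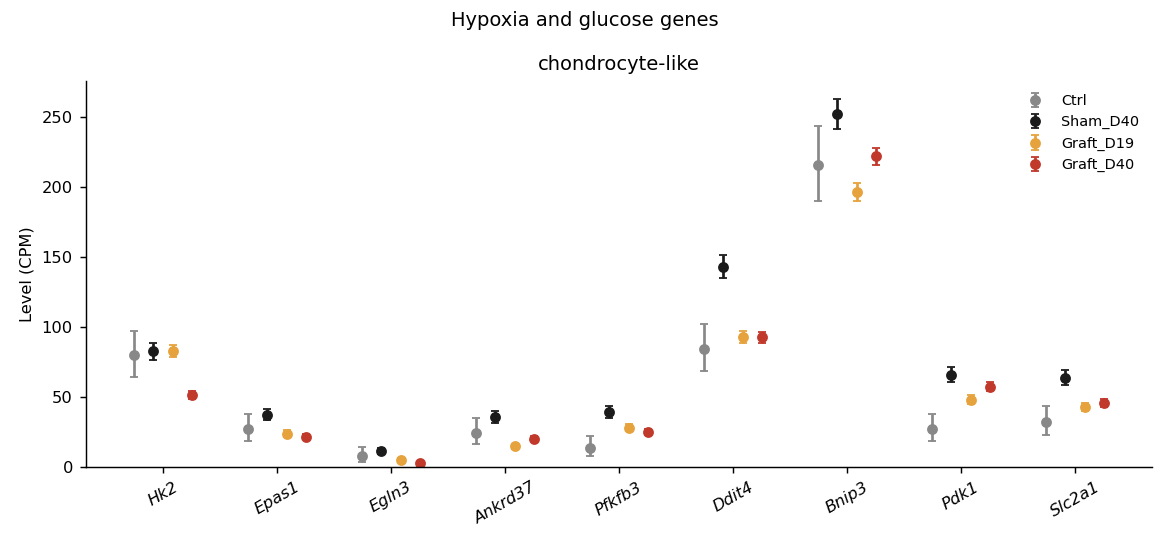
Level in CPM (vertical axis, from 0) of 9 members in chondrocyte-like cells, with the libraries as points and exact Poisson intervals as bars. Hk2 and Egln3 are lowest in Graft_D40, whereas for Ddit4 and Pfkfb3 Sham_D40 stands above the 3 other libraries.

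The remaining stromal classes were small. In osteolineage-like cells, 121 to 246 a library, 0 of 28 members were called higher at day 40 than in Sham_D40 and 3 lower, against 2.0% and 18.5% of all genes, the 3 being Bnip3, Epas1 and Pfkfb3. In fibroblast-like cells, 172 in Sham_D40 and 141 in Graft_D40, 0 of 32 were higher and 5 lower, against 4.47% and 3.94%. Those 5 included Hif1a at 91.1 against 186 CPM, 2.04-fold lower (1.69 to 2.47), and Slc16a3 at 22.8 against 40.8 CPM. The summed glycolysis level of fibroblast-like cells was 0.867-fold (0.833 to 0.902) that of Sham_D40. Pericyte-like cells reached 50 cells only in Ctrl and Graft_D40, where Epas1 was at 372 and 736 CPM and Gapdh at 1372 and 599 CPM.

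In endothelium the summed glycolysis level was 2312, 1741, 1827 and 2015 CPM, 1.16-fold (1.13 to 1.18) that of Sham_D40 at day 40, but the 2 lactate transporters differed in opposite directions. Of 30 measured members 2 were called higher at day 40 than in Sham_D40 and 2 lower, against 7.27% and 7.31% of all genes, or 3 and 2 with size factors (7.49% and 7.03%). Slc16a1 (chr3:104638668-104658462 on mm10) was at 50.7, 42.1, 26.8 and 10.7 CPM, 3.93-fold lower than in Sham_D40 (3.20 to 4.86). Slc16a3 was at 1.18, 2.86, 4.92 and 9.28 CPM, 3.24-fold higher than in Sham_D40 (2.12 to 5.11). Both transporters were called the same way against Ctrl. They were the only 2 members called the same way against both ungrafted libraries at day 40. That is 1 of 30 in each direction, where 5.87% of genes were higher and 4.54% lower. Slc16a3 was under 5 CPM in every other library, so it met the minimum only through Graft_D40, where it was high. In sinusoidal-like cells it was not called higher against both, and Mxi1 was the only member that was.

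The share of vessel types differed too, sinusoidal-like cells giving 80.5% of endothelial UMIs in Sham_D40 and 61.8% in Graft_D40. Within sinusoidal-like cells alone Slc16a1 was at 55.2, 50.8, 30.1 and 16.5 CPM, 3.08-fold lower than in Sham_D40 (2.497 to 3.84). The 12 sinusoidal markers summed there to 27496, 22213, 16670.3 and 11614 CPM in the same order, and 6, 27, 36 and 80 cells lay near a cut. The part of this in the Slc16a1 values was not tested. Slc16a3 there was at 1.13, 3.05, 4.86 and 7.87 CPM from 6, 24, 52 and 54 UMIs. In all, 3 of 29 members were called higher and 3 lower in sinusoidal-like cells, against 8.0% and 7.54% of genes, the others being Eno1 and Mxi1 higher and Pdk1 and Bnip3 lower. Bnip3 was at 15.8, 17.9, 11.5 and 10.3 CPM, low in both grafted libraries. In arterial-like cells, 3 of 29 were higher (Eno1, Pkm and Hif1a) and 2 lower (Bnip3 and Ankrd37), against 5.37% and 4.95%. Hif1a there was at 89.4, 101, 189 and 166 CPM, 1.65-fold (1.34 to 2.03) above Sham_D40 at day 40. Of the arterial-like cells 22.7% to 35.3% lay near a cut, and their part in this was not tested. In sinusoidal-like cells Hif1a was instead at 291, 243, 233 and 214 CPM, and it was not called there.

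At day 19 endothelium had 0 of 28 members called higher than in Ctrl and 5 lower, against 19% and 7.71% of genes. Gapdh was at 854 CPM in Ctrl and at 389, 422 and 424 in the 3 others, and Ldhb at 37.9 against 17.4, 15.1 and 12.3, so for these 2 Ctrl alone was high. Slc16a1 and Bnip3 were also called lower against Sham_D40, where 1.46% of genes were called lower against both.

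Immediate early genes were lower in endothelium at day 40 too, 16 of 19 called lower than in Sham_D40 and 0 higher, against 7.31% and 7.27% of all genes. Among them Fos was at 247 against 909 CPM. Their part in the members' values was not tested. Of the 33 measured genes of the fixed list of other hypoxia-inducible genes, 4 were called higher and 5 lower, against 7.27% and 7.31% of all genes. The median log2 ratio of that list was -0.07 (0.03 for all genes). Among the lower ones, Cited2, a brake on Hif1a, was at 62.4 against 305 CPM, Angptl4 at 73.9 against 305 CPM and Vegfa, the vascular growth factor, at 35.8 against 112 CPM. Among the higher ones, Stc1, the secreted glycoprotein stanniocalcin, was at 132 against 44.3 CPM.

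**Figure D5:**
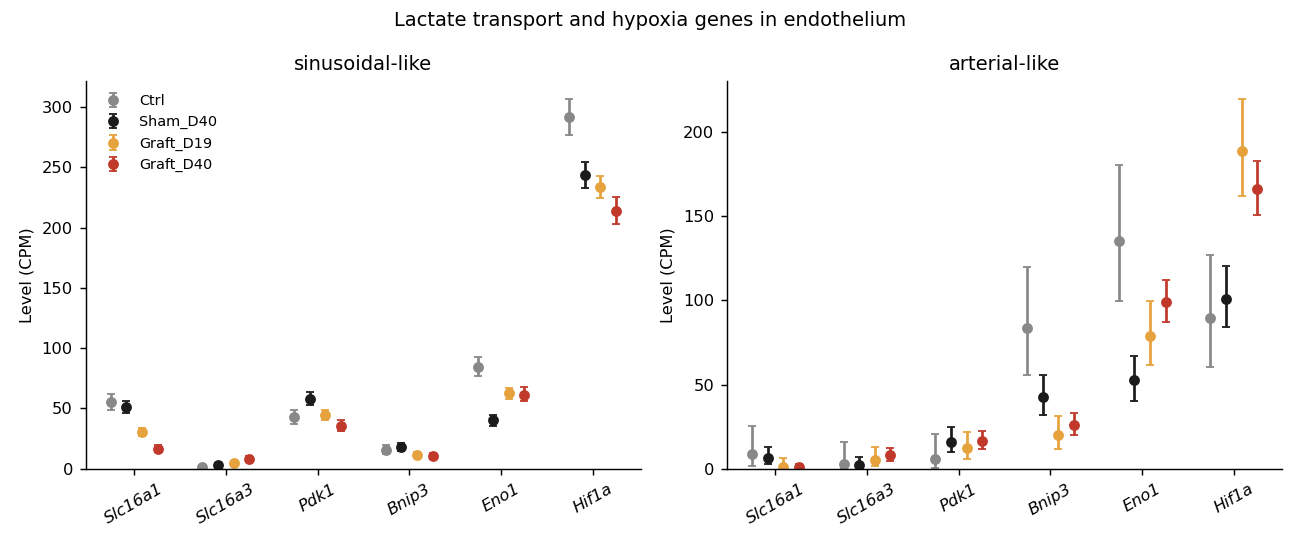
Level in CPM (vertical axes, from 0) of 6 members in sinusoidal-like (left) and arterial-like (right) cells, with the 4 libraries as points and exact Poisson intervals as bars. In sinusoidal-like cells Slc16a1 is lowest and Slc16a3 highest in Graft_D40, and in arterial-like cells Hif1a is higher in both grafted libraries than in both others.

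Over the LepR-like class as a whole the regulators differed little at day 40, though some differed between the cycling and the other Graft_D40 cells. In LepR-like cells none of the 4 measured regulators was called at day 40: Hif1a was at 115, 116, 141 and 125 CPM and Egln1 at 52.7, 46.1, 54.8 and 57.6 CPM. Vhl was at 12.02, 18.9, 19.2 and 19.02 CPM, the lowest value being that of the shallow Ctrl library. Egln3 had a level of 0 in Ctrl and 2.30 CPM in Graft_D40, under the minimum. In the cycling Graft_D40 cells Epas1 was at 39.2 CPM against 474 in the others, Egln3 at 7.26 against 1.26 and Vhl at 13.9 against 20.1. Hif1a was there at 134 against 123 CPM and Egln1 at 74.2 against 54.1 CPM. These are RNA levels, and the Hif proteins are known to be set mainly by their breakdown.

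Other members in LepR-like cells did not follow the enzymes. Hk1, the constitutive hexokinase, was at 13.3, 24.2, 25.7 and 32.5 CPM, and Aldoa, an aldolase, at 345.5, 246.5, 233.5 and 349 CPM, neither called against Sham_D40. Ndrg1, a stress-induced gene, was at 20.9, 35.2, 29.4 and 24.5 CPM, Bnip3 at 43.5, 39.5, 34.4 and 46.1 CPM and Pdk1 at 4.57, 8.35, 7.40 and 10.0 CPM. Pfkfb3 was at 11.0, 10.1, 13.9 and 15.1 CPM, just under the threshold against Sham_D40. Aldoc, Eno2, Egln3 and Ankrd37 were below the minimum in these cells. In endothelium Hk2, Aldoc, Eno2, Egln3 and Pfkfb4 were below it, and in chondrocyte-like cells Eno2 alone. Ndrg1 was far higher in endothelium, at 227 to 281 CPM, than in LepR-like cells.

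At day 19 the enzymes did not stand out in LepR-like cells. Of 28 measured members 9 were called higher than in Ctrl and 2 lower, against 28.1% and 8.65% of all genes, and the summed glycolysis level was 0.819-fold (0.801 to 0.838) that of Ctrl. With size factors 6 were higher and 4 lower (13.4% and 17.2% of all genes). In chondrocyte-like cells 5 of 34 were higher and 1 lower, against 13.7% and 6.93%, Ankrd37 being the lower one and also lower than in Sham_D40 (0.874% of genes). With size factors 5 were higher and 2 lower (9.53% and 9.98%). In arterial-like cells Pkm and Hif1a were called higher and Bnip3 lower at day 19 against both ungrafted libraries, where 3.24% and 2.52% of genes were.

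The neighbouring pathways of LepR-like cells were also set against Sham_D40 at day 40. In that comparison 10.9% of all genes were called higher and 7.6% lower, and their median log2 ratio was -0.01. Of 10 measured other glycolysis and lactate genes 1 was called higher and 1 lower, and of 33 other hypoxia-inducible genes 6 were higher and 3 lower, with a median log2 ratio of 0.13. P4ha2, a collagen prolyl hydroxylase, was at 55.5 against 19.4 CPM in Sham_D40, and Adm, the vasoactive peptide adrenomedullin, at 27.6 against 11.1 CPM. Angptl4, an inhibitor of lipoprotein lipase, was instead at 119 against 327 CPM. Of 13 genes of pyruvate entry to mitochondria 1 was higher, Pdk4 at 51.5 against 28.0 CPM, and 1 lower. Of 7 pentose phosphate genes 1 was higher, Tkt, transketolase, at 111 against 59.2 CPM.

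The comparisons across the other pairs share libraries with those above and stand beside them. Against Ctrl at day 40, 23 of 33 stromal members were higher and 2 lower, where 19.7% and 16.3% of genes were, 17 of 30 LepR-like members higher and 1 lower (28.3% and 11.2%), and 7 of 34 chondrocyte-like members higher and 2 lower (17.6% and 8.58%). In endothelium 5 of 30 were higher and 3 lower (24.1% and 11.2%), and in osteolineage-like cells 2 of 26 higher and 2 lower (9.13% and 19%). Against Sham_D40 at day 19, LepR-like cells had 2 of 30 higher, Hk2 and Eno1, and 0 lower (2.62% and 2.23%), and stroma 3 of 33 higher and 0 lower (3.84% and 7.59%). Chondrocyte-like cells had 0 of 34 higher and 6 lower, Pfkp, Epas1, Egln3, Ankrd37, Ndrg1 and Ddit4 (2.44% and 7.39%). Endothelium had 1 of 29 higher, Eno1, and 3 lower, Slc16a1, Bnip3 and Ankrd37 (3.39% and 4.37%), and osteolineage-like cells 3 of 28 higher, Hk2, Pfkl and Eno1, and 1 lower, Epas1 (3.18% and 10.1%). Between the ungrafted libraries, Sham_D40 over Ctrl, LepR-like cells had 9 of 29 higher and 2 lower, Gapdh and Eno1 (26.5% and 10.4%), and chondrocyte-like cells 10 of 34 higher and 1 lower, Eno1 (22.0% and 7.96%). Endothelium had 3 of 29 higher and 3 lower, Gapdh, Eno1 and Ldhb (20.5% and 8.88%), and osteolineage-like cells 0 of 26 higher and 1 lower, Hk2 (14.6% and 9.04%). Eno1 was thus called lower in Sham_D40 than in Ctrl in LepR-like cells, chondrocyte-like cells and endothelium.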

How the data were processed

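The authors deposited filtered gene by barcode UMI counts for each of 4 libraries, made with Cell Ranger on mm10: version 3.1.0 per the submitters' processing notes, 5.0.0 per the file headers. Each UMI is 1 tagged 3-prime end, so no length scaling applies. From these counts, barcodes with at least 500 genes and 1000 UMIs and at most 10% mitochondrial UMIs were kept. Called doublets were removed (43 to 89 a library), as were cells with 50 or more ribosomal pseudogene counts per 10000, a rule set after seeing the data, which left 4059 to 4746 cells. Cells were assigned by the share of fixed marker lists they expressed, and clustering (scanpy 1.11.5) put 99.8% of 17492 cells in the same compartment. UMIs were summed by class and library and divided by the class total. Levels carry exact Poisson intervals and ratios exact conditional binomial intervals, both at 95%. Log2 ratios add 1 CPM. Classes under 50 cells gave no value. The scripts were tested on simulated data.

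With 1 library a group no test was possible. Members at 20 CPM or more in a library and called the same way against both ungrafted libraries, and a fixed set of 22 members, were given in full where they bear on a result, the rest by range and count. For other lists up to 4 members with the largest differences were named. The members and lists were chosen with earlier results of these data known. Alternatives covered scaling, pseudocount, minimum level, comparator, cell weighting, class mixture, doublets, clusters and, chosen after seeing the data, ribosomal pseudogene cells, cell cycle cells and cell depth.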

Additional observations from a re-analysis of the deposited data

Results flagged for a closer look

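Slc16a1 and Bnip3 were called in opposite directions in the 2 compartments, taken whole, at day 19 against Ctrl. For Slc16a1 the log2 ratio was 1.09 in mesenchymal stroma and -0.89 in endothelium. For Bnip3 it was 0.67 in stroma and -0.66 in endothelium. The stromal sign of Bnip3 turned with the class mixture, to -0.19 with LepR-like, osteolineage-like and chondrocyte-like cells weighted alike and to -0.32 without chondrocyte-like cells. Within the classes Bnip3 was at 34.4 CPM at day 19 against 43.5 in Ctrl in LepR-like cells, and at 197 against 216 CPM in chondrocyte-like cells. Both differences were under the 1.5-fold threshold. Slc16a1 was at 5.82 against 3.14 CPM in LepR-like cells, where it averaged under the minimum of 5 CPM and was not measured. In chondrocyte-like cells it was at 17.8 against 15.1 CPM, also under the threshold. The difference between compartments was not tested, since each group has 1 library.

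Cells with the ribosomal pseudogene signature, which only the alternative that kept them used, numbered 67 in Graft_D19 and 231 in Graft_D40, against 15 in Ctrl and 0 in Sham_D40. By their markers 103 of the 231 and 6 of the 67 would have been chondrocyte-like. Their median mitochondrial share was 0.0934% in Graft_D19 and 0.101% in Graft_D40.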

How the results depend on the processing

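No paired analysis was possible because each group has 1 library. Of 288 alternative values for the counts and medians of members, 218 stayed within 1.5 times or kept their size, 68 moved and 2 changed sign. Of 465 alternative values for single genes 377 kept direction and call, 72 lost the call and 16 changed sign. The causes were not tested beyond what each alternative itself changes. A minimum of 50 CPM left only 14 to 21 members measured, depending on the population and comparison, so its counts below are out of fewer members. With each cell counted alike a call needed the ratio alone and no interval, so those counts follow a looser rule.

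For stroma at day 40 against Sham_D40, size factors gave 13 higher, 0 lower and a median log2 of 0.42, no minimum 4 lower, a 50 CPM minimum a median of 0.45, and Ctrl as comparator 23 higher and a median of 0.94. Each cell counted alike gave 0 lower, the fixed mixture 0 higher, 1 lower and a median of -0.053, and stroma without chondrocyte-like cells 11 higher and 0 lower. For stroma at day 19 against Ctrl, a 50 CPM minimum gave 9 higher and 0 lower, Sham_D40 as comparator 3 higher, 0 lower and a median of 0.14, and each cell alike 12 higher and a median of 0.43. The fixed mixture gave 8 higher, 0 lower and a median of 0.23, and leaving out chondrocyte-like cells 10 higher, 3 lower and a median of 0.37.

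For endothelium at day 40, a 50 CPM minimum gave 1 higher and 0 lower, Ctrl as comparator 5 higher, and each cell alike 1 higher. At day 19, size factors gave a median of -0.10, no minimum 1 higher, a 50 CPM minimum 2 lower, and Sham_D40 as comparator 1 higher and 3 lower. In sinusoidal-like cells at day 40 a 50 CPM minimum gave 1 higher and 0 lower. At day 19 size factors gave 0 higher and a median of -0.12, no minimum 2 higher, a 50 CPM minimum 0 higher and 2 lower, Sham_D40 as comparator 2 lower, and each cell alike 0 higher.

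For LepR-like cells at day 40, a 50 CPM minimum gave a median of 0.89, Ctrl as comparator 1 lower and a median of 0.76, each cell alike 8 higher, 1 lower and a median of 0.20, no cell cycle cells a median of 0.24, and cells of 5000 to 15000 UMIs 4 higher, 1 lower and a median of 0.205. At day 19, size factors and each cell alike each gave 4 lower, that depth range 5 lower, a 50 CPM minimum 2 higher, and Sham_D40 as comparator 2 higher and 0 lower. For chondrocyte-like cells at day 40, a 50 CPM minimum gave 2 lower, and Ctrl as comparator 7 higher, 2 lower and a median of 0.13. At day 19, size factors gave 2 lower, a 50 CPM minimum 1 higher and 0 lower, and Sham_D40 as comparator 0 higher, 6 lower and a median of -0.29.

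Signs changed for these log2 ratios in stroma at day 19. With Sham_D40 as comparator Slc2a1 was at -0.077, Pfkp at -0.21, Ankrd37 at -0.44 and Kdm3a at -0.14. With each cell alike Ankrd37 was at -0.37. With the fixed mixture Aldoc was at -0.17, Eno1 and Ldha at -0.11, Bnip3 at -0.19, Ankrd37 at -0.50 and Higd1a at -0.13. Without chondrocyte-like cells Slc2a1 was at -0.0044, Eno1 at -0.20 and Bnip3 at -0.32. In endothelium Eno1 was at -0.24 at day 40 against Ctrl, and Gapdh at 0.12 at day 19 against Sham_D40.

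Size factors shifted the log2 scale by 0.14 for stroma at day 40, and at day 19 by -0.19 in endothelium, -0.24 in LepR-like, -0.10 in chondrocyte-like and -0.21 in sinusoidal-like cells. Depth limits Ctrl most, where the chondrocyte-like median was 1506 UMIs against 21389 to 24841 in the other libraries.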

Other observations

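In osteolineage-like cells Hk2 was at 31.6, 8.35, 42.2 and 8.22 CPM in Ctrl, Sham_D40, Graft_D19 and Graft_D40. It was thus low in both day 40 libraries, grafted or not, and higher in Graft_D19 and in Ctrl, for which the labels give no day. The 2 day 40 libraries are also the 2 with antibody tag counts, so day and tag counts cannot be told apart. Graft_D19 was 5.06-fold (3.34 to 8.002) above Sham_D40.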
